A study of Ovis aries with 6 samples.

Results

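The windows described here are stretches of the sheep autosomes where far more bisulfite reads piled up than elsewhere. The autosomes of the build Oar_v3.1 were divided into fixed windows of 1000 bases, and a window was kept when it held at least 3 listed CpG positions and when its mean coverage per CpG, summed over the 6 animals, was at least 205 reads. That threshold is 5 times the median of 41 reads per autosomal CpG. The rule kept 326 of 2202164 windows, or 0.0148%, which together held 7251 listed CpGs. The windows were thus chosen by the measured coverage of these 6 animals. Every coverage value below describes them and is not a test, whereas the methylation level played no part in the choice.

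The samples were genomic DNA of perirenal adipose tissue, the fat around the kidney, from wild type, untreated Merino sheep on maintenance diets. The fetal group was 3 fetuses at 132 days post conception, with term at 150 days, whose tissue is labelled brown adipose. The lamb group was 3 lambs, aged 89 days after birth per the sample protocols but 80 days per the design text of the series, whose tissue is labelled white adipose. Each sample was a separate animal, from a ewe of its own, with 1 lane of paired-end reads. The sample descriptions end in TV for the fetuses and in VEH for the lambs, so stage and any meaning of those tags cannot be told apart. The tissue is a mixture of cells, and DNA methylation values hold no expression markers against which its label could be checked here.

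Genome assemblies often merge nearly identical copies of a repeated sequence, such as satellite arrays, ribosomal DNA, segmental duplications or recent transposable elements, into 1 copy. Reads from all the real copies then align to that copy, its depth rises with the number of copies, and the methylation level read there is an average over copies. Satellite arrays and transposable elements in mammalian somatic cells are usually methylated, while CpG-rich gene promoters are usually not. Neither repeats nor genes were annotated on Oar_v3.1 here, so whether a given window is a collapsed repeat was not tested, and windows are named by position alone.

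Libraries differed in depth, with 136938075 counts summed over all listed CpGs in lamb 2, the fewest, and 209550245 in lamb 1, the most. An autosomal CpG had on average between 5.22 (lamb 2) and 8.00 reads (lamb 1). To compare animals of different depth, the mean coverage per CpG of a window was divided by that animal's own median over autosomal windows with at least 3 listed CpGs, and the ratio is called relative coverage. Because some CpGs in these windows are listed with 0 reads in single animals (below), relative coverage and levels were computed over usable CpGs, those that every animal covered with 5 or more reads, unless all listed CpGs are named. For usable CpGs the divisor was the animal's median over windows with at least 3 usable CpGs. Values over usable and over all listed CpGs thus have different divisors. Of the 7251 CpGs, 4696 were usable. They left 311 windows with at least 3 usable CpGs and 15 windows without a level, 7 of which held CpGs listed at 0 in an animal.

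Coverage was high over most CpGs of most of these windows. Summed coverage per CpG had a median of 378 reads, 9.22 times the autosomal median, and ran from 205 to 2254 reads. In 241 of the 326 windows the median CpG also reached 205 reads, in 44 windows every listed CpG did, and in 79 windows under 50% of the CpGs did. The windows were rich in CpGs, with a median of 16 listed CpGs against 8 over all windows. They held 0.0291% of the listed autosomal CpGs and between 0.379% (lamb 1) and 0.450% (lamb 2) of the autosomal CpG reads of each animal. The window just inside the threshold was chr12:4943001-4944000 at 205 reads, followed by chr7:22640001-22641000 at 206 reads. Just outside lay chr6:168001-169000 at 204.9 reads and chr10:36986001-36987000 at 204 reads.

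The windows were unevenly placed along the genome. Chromosome 1 held 74 of them and chromosome 2 held 44, whereas chromosomes 10, 13 and 20 held 1 each. Per 10000 windows the density was highest on chromosome 21, at 3.47, and on chromosome 1, at 3.08, and lowest on chromosome 13, at 0.129. Within 1 Mb of the first base of a chromosome lay 42 windows, or 12.9%, against 1.05% of all windows. Of these 42, 38 were on chromosomes 4 to 26, the acrocentric chromosomes of the sheep, and the 42 were on 10 chromosomes in all. Chromosomes 4 to 26 are most of the autosomes, so the count of 38 alone shows no excess on them. Within 1 Mb of the last listed CpG lay 7 windows, or 2.15%, against 1.13% of all windows. Adjacent windows joined into 206 runs, of which 144 were single windows and 62 had at least 2 windows and held 182 windows together.

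Single CpGs in these windows were listed at exactly 0 reads in one animal where other animals had many. This was so for 726 of the 7251 CpGs, in 85 of the 326 windows, when a CpG was counted if the other animals' relative counts gave at least 30 reads for the animal at 0. Only other animals with reads at the CpG entered that depth, so a CpG at 0 in every animal was never counted. The counts were 361 CpGs in fetus 1, 613 in fetus 2, 319 in fetus 3, 266 in lamb 1, 9 in lamb 2 and 146 in lamb 3. Fetus 2 had the most, and lamb 2, the shallowest library, had the fewest. Between 1 and 14 such CpGs per animal carried 1 to 4 reads, so counts between 0 and the usable minimum were rare.

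The share at 0 rose with the depth the other animals gave. For CpGs where they gave at least 400 reads it was 55.1% in fetus 1, 95.8% in fetus 2, 67.6% in fetus 3, 40.1% in lamb 1 and 36.9% in lamb 3. In lamb 2 it was 0 of 155 such CpGs, which allows a share of up to 1.94% among CpGs that could be counted. A CpG at 0 in every animal could not enter, so the share in lamb 2 over all deep CpGs is not known. For CpGs where the other animals gave 30 to 100 reads the share ran from 0.175% in lamb 2 to 1.11% in fetus 2. The highest count at any listed position of the genome was 745, 624, 728, 757, 817 and 744 reads in fetuses 1 to 3 and lambs 1 to 3. A step that would set deep positions to 0 was not given in the sources used here, and its part in these counts was not tested.

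**Figure D1:**
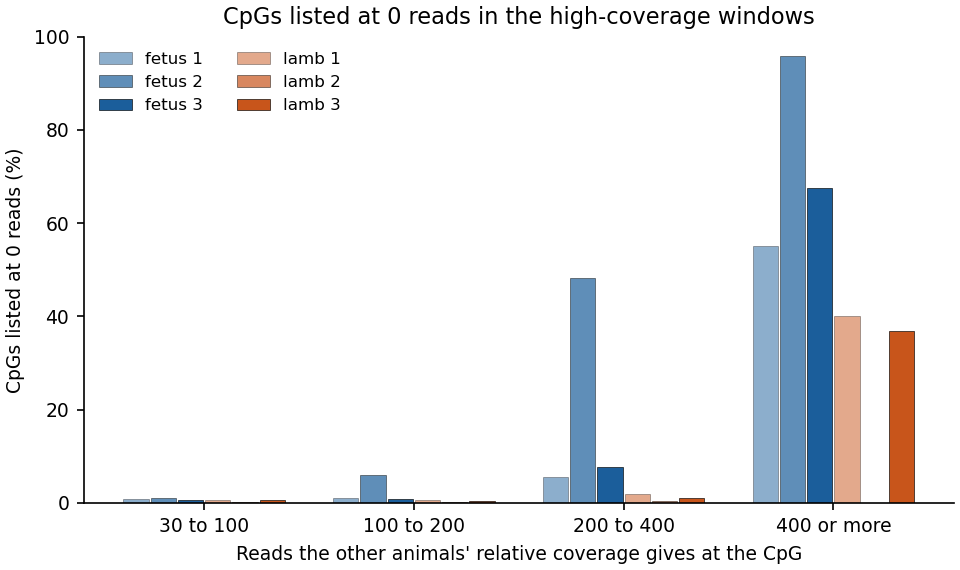
Share of CpGs in the high-coverage windows that are listed at 0 reads (y axis, percent) in each animal (bars; fetuses blue, lambs orange), by the number of reads that the other animals' relative counts give for that CpG (x axis, 4 classes). At 400 reads or more the bars stand between 36.9% and 95.8% in 5 animals and at 0% in lamb 2.

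The window of highest coverage shows the pattern at single CpGs. It is chr14:60832001-60833000, with 28 CpGs and 2254 reads per CpG summed over the animals. At position 60832489 fetus 1 had 745 reads, its highest count anywhere, and the other animals had 498, 675, 686, 418 and 466 in the order fetus 2, fetus 3, lamb 1, lamb 2 and lamb 3. At the CpGs on both sides, 60832472 and 60832536, fetus 1 had 0 reads, while lamb 1 had 672 and 689. In all, 21 of the 28 CpGs were at 0 in fetus 1, 8 in fetus 3, 2 in lamb 1 and none in the other 3 animals. Relative coverage over all 28 CpGs was then 17.2 in fetus 1 against 55.6 to 86.8 in the other 5, but over the 7 usable CpGs it was 53.9, 48.1 and 48.3 in the fetuses and 46.8, 30.2 and 44.3 in the lambs.

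**Figure D2:**
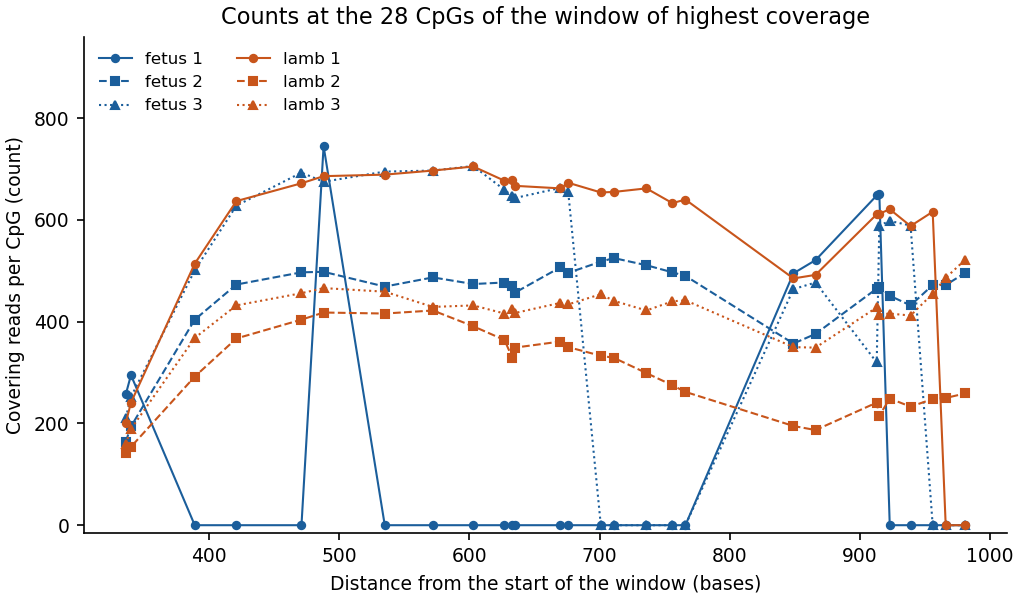
Covering reads (y axis, counts) at each of the 28 CpGs of the window of highest coverage, by distance from its start (x axis, bases); lines join the CpGs of 1 animal. Fetus 1 drops to 0 at 21 of the 28 CpGs, beside a CpG with 745 reads, and fetus 3 and lamb 1 drop to 0 at 8 and 2 of them.

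Windows with such zeros were most of those with very uneven coverage. Over all listed CpGs, 22 windows had a highest animal at least 5 times the lowest in relative coverage, and 15 of the 22 held CpGs listed at 0. Over usable CpGs 6 of 311 windows did. The 4 most uneven windows over all listed CpGs were chr12:6825001-6826000, chr22:50077001-50078000, chr1:118809001-118810000 and chr17:24973001-24974000. The first had 1361 reads in lamb 2 and none in the other 5 animals. The second had relative coverage of 63.2 in lamb 2 and 28.0 in lamb 3 but 0.351 to 4.07 in the other 4, with CpGs at 0 in all of those. The fourth had 73.9 in lamb 2 and 0.844 to 4.93 in the rest.

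The fifth deepest window, chr7:86615001-86616000, showed the same at 38.98 times the median. Of its 40 CpGs, 15 were at 0 in fetus 1, 31 in fetus 2, 12 in fetus 3 and 3 in lamb 1. Relative coverage over all 40 was lowest in fetus 2, at 11.3, and over the 6 usable CpGs it was highest there, at 51.98. The level over those 6 was 67.8%, 67.4% and 67.9% in the fetuses and 66.4%, 74.5% and 74.1% in the lambs, which overlap.

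The window chr1:118809001-118810000 held a deep segment next to ordinary sequence. Its 5 CpGs from 118809208 to 118809819 had between 2 and 14 reads in each animal. The CpG at 118809988 had 648 reads in fetus 1, 696 in lamb 1, 402 in lamb 2 and 552 in lamb 3, and 0 in fetuses 2 and 3. At that CpG 77 of 648 reads were methylated in fetus 1, 24 of 696 in lamb 1, 16 of 402 in lamb 2 and 23 of 552 in lamb 3. Over the 3 usable CpGs, all of ordinary depth, the level was 65.5%, 75.0% and 72.4% in the fetuses and 72.7%, 70.0% and 56.0% in the lambs. The usable CpGs of this window therefore describe its edge and not its deep segment.

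High coverage was shared by the animals in most windows. Over all listed CpGs, 222 of 326 windows reached 5 times the animal's own median in each of the 6 animals, 307 reached 3 times, and 8 had an animal under 2 times. Over usable CpGs the highest animal exceeded the lowest by a median of 1.96 times. The same ratio was 1.56 in windows of ordinary coverage (0.5 to 1.5 times the autosomal median) and 1.90 in windows at 3 to 5 times. Across the 311 windows, log2 relative coverage of a pair of animals correlated with r between 0.690 and 0.875; these points share their libraries and many are neighbours, so r is a description only.

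Median relative coverage was lower in the lambs than in the fetuses, but the share of all reads was not. The median over 311 windows was 10.9, 10.2 and 10.8 in fetuses 1 to 3 and 9.62, 8.10 and 8.55 in lambs 1 to 3, so each lamb lay below each fetus. The lamb mean was lower in 254 of the 311 windows, in 245 without lamb 2 and in 232 without fetus 1. The share of all windows with a lower lamb mean is not given here, so these counts alone show no excess. All 3 lambs lay below all 3 fetuses in 49 windows, or 15.8%, against 5.75% of all windows tested, and above them in 6 windows, or 1.93%, against 5.54%. Over all listed CpGs the same counts were 63 of 326 (19.3% against 7.21%) and 8 of 326 (2.45% against 6.25%). As a share of an animal's autosomal CpG reads, the 326 windows held 0.387%, 0.404% and 0.440% in the fetuses. In the lambs they held 0.379%, 0.450% and 0.421%. The means were 0.410% and 0.417%, and the stages overlap. This share sums reads over all listed CpGs, and the number of CpGs at 0 differed between animals (above). Their part in the share was not tested. With each animal's mean coverage as divisor, the median relative coverage over all listed CpGs stayed lower in lambs. It was 10.1 ± 0.272 in fetuses and 8.72 ± 0.22 in lambs (SD, n = 3 each). Other windows with at least 40 CpGs had medians of relative coverage of 0.958, 1.02 and 0.989 in the fetuses and 0.938, 0.932 and 0.921 in the lambs. Those with 3 to 9 CpGs went the other way, at 1.01, 0.978 and 0.972 in the fetuses and 1.02, 1.04 and 1.05 in the lambs. High-coverage windows with 3 to 9 CpGs had 7.91, 5.76 and 7.12 in the fetuses and 6.797, 6.23 and 6.28 in the lambs, where fetus 2 lay below all lambs. The part of CpG number in the difference was not tested.

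**Figure D3:**
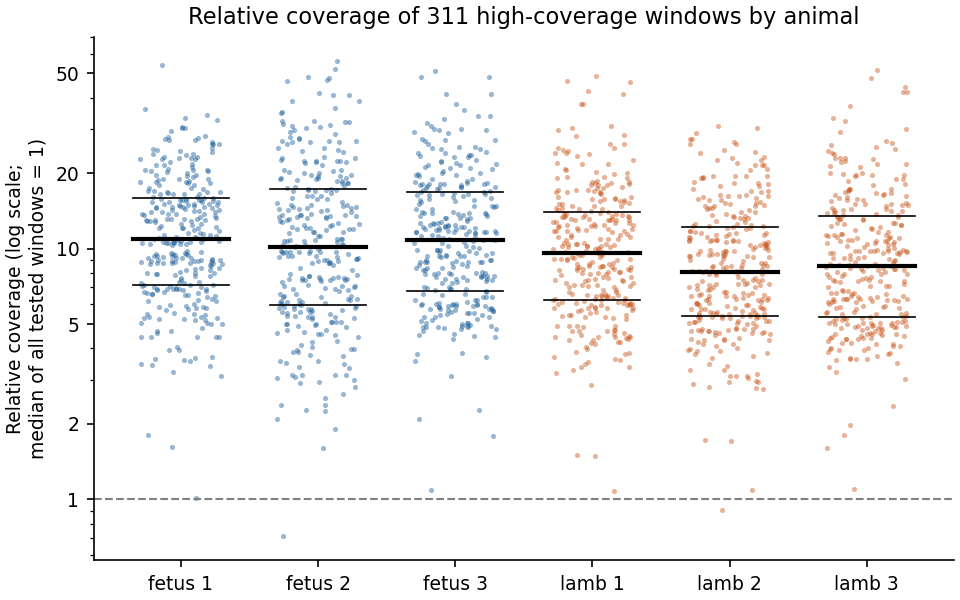
Relative coverage over usable CpGs (y axis, log scale; the animal's median over all tested windows is 1) of the 311 high-coverage windows in each animal (x axis); thick lines are medians and thin lines quartiles. The medians are 10.9, 10.2 and 10.8 in the fetuses and 9.62, 8.10 and 8.55 in the lambs.

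A few windows were uneven among usable CpGs too; 4 were chosen after their values were seen. At chr2:161512001-161513000 relative coverage was 4.60, 17.2 and 4.93 in the fetuses and 4.43, 1.70 and 4.70 in the lambs, so fetus 2 was high and lamb 2 low. At chr11:45900001-45901000 it was 10.6, 31.5 and 12.3 in the fetuses and 7.12, 4.31 and 9.45 in the lambs. At chr3:23837001-23838000 it was 6.18, 20.6 and 8.38 in the fetuses and 5.82, 3.05 and 9.26 in the lambs. These 3 windows had the same highest and lowest animal. At chr4:23389001-23390000 lamb 3 was lowest, at 1.97, and fetus 1 highest, at 15.6.

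High-coverage windows were less methylated than other windows in each of the 6 animals. The level, methylated over covering reads summed over the windows, was 44.8%, 39.2% and 41.9% in fetuses 1 to 3 and 45.1%, 46.2% and 42.0% in lambs 1 to 3. In the other 842260 windows tested it was between 70.5% and 72.4% in every animal. The fetal mean was 42.0% ± 2.78 (SD, n = 3) and the lamb mean 44.5% ± 2.18 (SD, n = 3), a difference of 2.48 points, and the values of the stages overlap. Over all listed CpGs of the 326 windows, with those at 0 left as listed, the means were 40.4% ± 1.12 and 40.2% ± 1.55. The difference was then -0.227 points. The level over usable CpGs rests on 311 windows, and the CpGs at 0 differed between animals. The sign of the stage difference thus depended on which CpGs and windows entered. Without fetus 2 the difference over usable CpGs was 0.270 points.

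The level over usable CpGs was lower in windows of higher coverage, up to 20 times the median. It was 71.1% in the fetuses and 71.7% in the lambs at 0.5 to 1.5 times the median, 61.8% and 62.3% at 1.5 to 3 times, and 51.0% and 52.5% at 3 to 5 times. Inside the threshold it was 46.9% and 49.6% at 5 to 10 times, 39.1% and 42.6% at 10 to 20 times, and 41.1% and 41.9% at 20 times or more, the last over 34 windows. Windows at 3 to 5 times the median, just below the threshold, thus had levels between those of ordinary windows and of the windows described here. Bands were set by coverage over all listed CpGs, whereas CpGs at 0 in an animal were left out of the level. The share at 0 rose with depth (above), so the level of a deep window can leave out its deepest CpGs. In the window of highest coverage 7 of the 28 listed CpGs were usable. The shares by band below have the same limit. CpG number also differed along the bands, with a median of 13 listed CpGs at 0.5 to 1.5 times and 27.5 at 20 times or more.

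Among windows with similar numbers of CpGs the level was still lower at high coverage. With 10 to 19 listed CpGs it was 52.3%, 49.8% and 50.7% in the fetuses and 54.4%, 56.6% and 51.8% in the lambs, against 74.7% to 76.7% in other windows. With 40 or more CpGs it was 29.4% to 32.8% over the 6 animals, against 47.0% to 48.5% in other windows. The high-coverage windows were the lower in every animal in all 4 classes of CpG number that were compared.

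Intermediate levels were more common than in all other windows together, but less so than in windows just below the threshold. Of the 311 windows, 224 (72.0%) had a mean level of 20% to 80%, 59 (19.0%) were under 20% and 28 (9.00%) were at 80% or more. Of the other windows tested, 47.6% were intermediate, 3.71% were under 20% and 48.6% were at 80% or more. At 3 to 5 times the median coverage 86.3% were intermediate, and the share was 79.9% at 5 to 10 times, 65.0% at 10 to 20 times and 52.9% at 20 times or more. The 10-point class with the most high-coverage windows was 50% to 60%, with 58 of them, whereas among other windows it was 80% to 90%. At single CpGs the distribution was wider, with 31.5% of the 4696 usable CpGs under 20%, 46.4% at 20% to 80% and 22.1% at 80% or more. In other windows the shares of single CpGs were 7.78%, 39.0% and 53.2%.

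**Figure D4:**
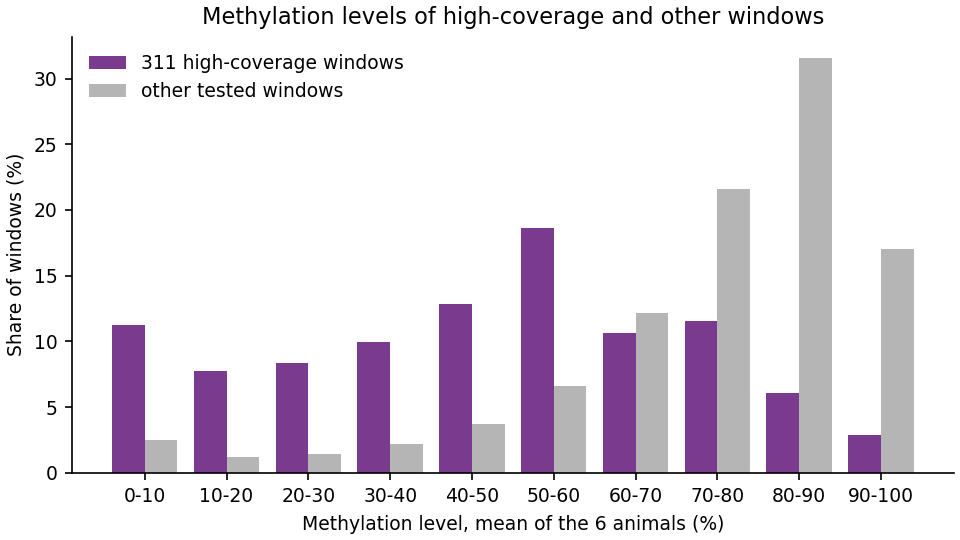
Share of windows (y axis, percent) by methylation level, the mean of the 6 animals (x axis, 10-point classes), for the 311 high-coverage windows and the other tested windows. High-coverage windows are most frequent at 50% to 60% and the others at 80% to 90%.

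Methylation differed between neighbouring CpGs of a window, and the pattern was alike in the 6 animals. Over 256 windows with at least 5 CpGs at 10 or more reads in each animal, the SD between the CpGs of a window had a median of 17.5 points and the range between them a median of 55.0 points. Deviations of 4234 such CpGs from their window's mean correlated between pairs of animals with r of 0.869 to 0.900. CpGs of 1 window share reads, so r is given as a description.

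The authors' region lists placed many of these windows in regions of low methylation. UMRs are unmethylated regions, usually CpG-rich promoters, and LMRs are regions of reduced methylation, often distal regulatory elements. A UMR of either stage overlapped 80 of the 326 windows (24.5%, against 3.47% of all windows), and an LMR but no UMR overlapped 120 (36.8%, against 10.2%). The other 126 (38.7%) lay outside both, against 86.4% of all windows. None of the 326 overlapped a DMV, a long methylation valley, which allows a share of up to 0.920%. Of all windows, 0.192% overlapped a fetal DMV and 0.170% a lamb DMV. Both shares are under that limit, so the 0 shows no lack of DMVs. These lists come from the same reads, so the overlap is not independent of the levels above.

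Levels were below those of other windows of the same class in each animal and in all 3 classes. In the LMR class the level was 38.4% ± 3.02 (SD, n = 3) in fetuses and 40.2% ± 2.72 (SD, n = 3) in lambs, against 57.1% and 57.8% in other LMR windows. Outside the lists it was 72.6% ± 1.00 and 74.5% ± 1.00 (SD, n = 3 each), against 80.9% and 81.4%. In the UMR class it was 19.4% ± 1.74 and 21.3% ± 0.901 (SD, n = 3 each), against 22.5% and 22.7%, the smallest gap of the 3 classes.

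Among windows with at least 5 usable CpGs the extremes lay far apart. The lowest level was at chr2:89140001-89141000, which had 69 usable CpGs, 12.2 times the median coverage and a UMR in both stages. Its level was 0.962%, 0.878% and 1.00% in the fetuses and 0.754%, 0.977% and 1.01% in the lambs, with 4359 or more reads over its 71 listed CpGs in each animal. The adjacent windows chr1:110952001-110953000 and chr1:110953001-110954000 came next, at means of 1.69% and 1.67% over the 6 animals, also in UMRs. At the other end chr9:13894001-13895000, with 130 listed CpGs, stood at 95.3% ± 1.04 in fetuses and 95.7% ± 0.237 in lambs (SD, n = 3 each). One window with only 3 usable CpGs, chr2:163802001-163803000, was higher still, at a mean of 95.9% over the 6 animals. The windows chr24:35618001-35619000 and chr14:60832001-60833000, the window of highest coverage, had means of 95.2% and 93.4% over the 6 animals. Very deep windows thus included both nearly unmethylated and nearly fully methylated ones.

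Summed over each of the 5 longest runs, the level did not separate the stages. At chr1:97062001-97069000, 7 windows long, the level was 39.5%, 39.8% and 37.5% in the fetuses and 41.3%, 41.0% and 38.6% in the lambs. At chr1:269548001-269555000, also 7 windows, it was 57.0% ± 0.990 in fetuses and 56.5% ± 1.92 in lambs (SD, n = 3 each). The 3 runs of 6 windows were chr23:87001-93000, at 62.6% ± 0.538 and 63.0% ± 0.665, chr6:5634001-5640000, at 77.9% ± 1.57 and 79.2% ± 0.677, and chr9:13109001-13115000, at 41.8% ± 0.985 and 44.7% ± 2.96 (SD, n = 3 each). In each of the 5 runs the values of the stages overlap. Single windows inside a run differed, with means over the 6 animals from 22.3% to 56.7% in the first run, 49.8% to 68.6% in the second, 55.9% to 76.3% in that of chromosome 23, 75.7% to 81.8% in that of chromosome 6 and 29.1% to 54.4% in that of chromosome 9.

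The comparison of the stages asked whether the level of a window differed between fetal and lamb tissue. Of the 311 windows tested, 0 passed both limits for a call, an adjusted p under 0.05 and 10 points between the stage means, in the quasi-binomial test moderated as in limma and adjusted over all 842571 windows; over all windows the share called was 0.0%. By unadjusted p under 0.05 in the same test, 90 of the 311 windows passed (28.9%, against 6.11% of all windows), 50 of them higher in lambs (16.1%, against 3.52%) and 40 lower (12.9%, against 2.6%). The share passing grew with coverage, from 24.1% at 5 to 10 times the median to 50% at 20 times or more, while the median size of a difference was only 2.06 points, against 3.67 points in other windows.

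That count depended on how the spread between animals was estimated. The median dispersion, the spread between animals relative to counting error, was 3.17 in these windows and 1.15 in the others, and the test draws each window's dispersion towards a common value of 1.28. With the common value allowed to rise with depth 52 windows passed (16.7%, against 6.08%), with each window's own dispersion 29 (9.32%, against 1.56%), with edgeR 36 (11.6%, against 5.44%) and with limma on log2 ratios 7 (2.25%, against 5.65%). Each of these 4 fits also called 0 of the 311 windows at an adjusted p under 0.05 and 10 points. Read against the background, the excess of small unadjusted p-values was therefore present in 4 of the 5 fits and absent with limma. In the depth-trended and own-dispersion fits, as in the main test, a dispersion under 1 was raised to 1. That can lower the share passing where dispersion is low, including the 1.56% of all windows. The limma fit used no weights for depth and drew variances towards a common value. This can lower the share passing in deep windows, which had a median of 971 reads per animal against 41.8 in the others.

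Without reference to a test, all 3 lambs lay above or all 3 below the fetuses in 55 of the 311 windows, or 17.7%, against 10.7% of all windows. They lay above in 31 windows (9.97%, against 6.12%) and below in 24 (7.72%, against 4.55%). The mean level was higher in lambs in 190 windows (61.1%, against 53.9% of other windows) and lower in 121. The median difference was 0.717 points, against 0.488 points in other windows. Within a stage, the SD of a window's level between animals had a median of 2.24 points in fetuses and 2.28 in lambs. A difference of 10 points or more was present in 7 windows. The share over all windows is not given here, so this count shows neither an excess nor a lack.

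**Figure D5:**
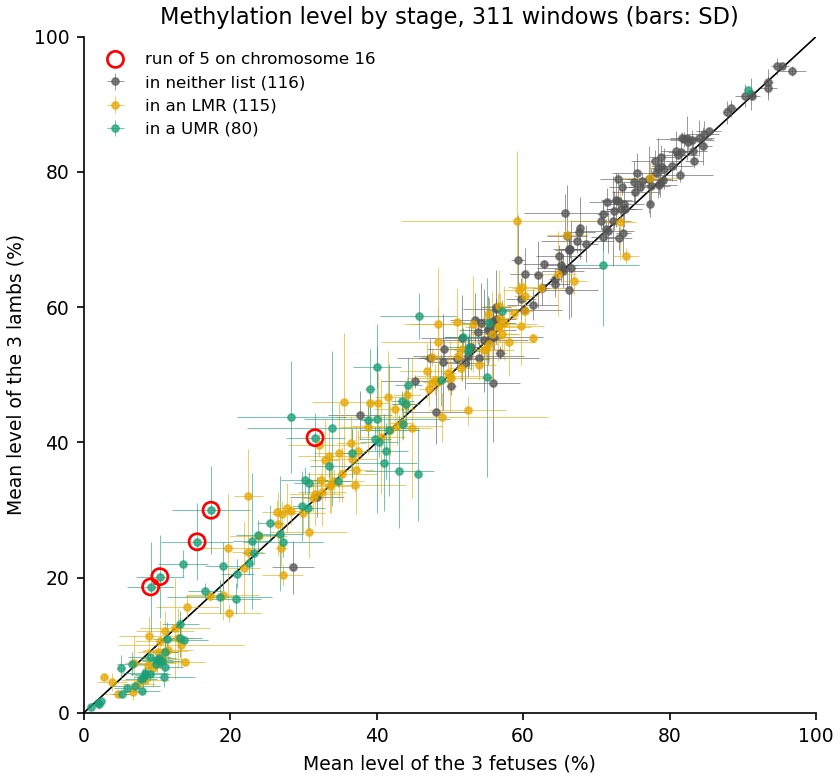
Mean methylation level of the 3 lambs (y axis, percent) against that of the 3 fetuses (x axis, percent) for 311 high-coverage windows, with SD bars, coloured by the authors' region lists; the line marks equal levels and red circles the run of 5 windows on chromosome 16. Most windows lie along the line, and the circled windows lie 9.11 to 12.6 points above it.

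The 4 lowest adjusted p-values ran from 0.0981 to 0.170, none past the threshold. At chr23:85001-86000, in an LMR of both stages, the level was 39.3%, 39.2% and 38.8% in the fetuses and 47.0%, 46.5% and 43.8% in the lambs. All 3 lambs were higher, by 6.65 points, at an adjusted p of 0.0981, which is also the lowest over all windows. The lowest adjusted p among windows at 0.5 to 1.5 times the median coverage was the same, so this window shares that value. Relative coverage at chr23:85001-86000 was 14.7, 14.7 and 17.6 in the fetuses and 17.1, 13.4 and 12.7 in the lambs. At chr3:100723001-100724000, also an LMR of both stages, it was 14.2%, 16.3% and 10.9% in the fetuses and 7.17%, 8.04% and 7.50% in the lambs, lower by 6.20 points in the lambs at an adjusted p of 0.158. This window held CpGs at 0 in the 5 animals other than lamb 2, 8 to 11 of its 36 CpGs in each, and its level rests on the 17 usable ones. At chr5:107884001-107885000, in a UMR, the level was 10.7%, 7.13% and 6.08% in the fetuses and 3.103%, 2.93% and 3.67% in the lambs, at an adjusted p of 0.167; 7 of its 21 CpGs were at 0 in fetus 2. At chr3:23837001-23838000, whose uneven coverage is given above, the level was 8.23%, 8.26% and 7.92% in the fetuses and 4.31%, 6.64% and 4.31% in the lambs, at an adjusted p of 0.170.

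The windows without overlap between the stages that are named next had larger differences and higher adjusted p-values. Among those higher in lambs, chr1:98645001-98646000, in an LMR, was at 28.8%, 36.8% and 30.7% in the fetuses and 38.9%, 41.5% and 38.3% in the lambs, at an adjusted p of 0.741. The window chr1:269552001-269553000, inside the second of the longest runs, was at 59.3% ± 0.939 in fetuses and 67.0% ± 6.67 in lambs (SD, n = 3 each), mostly through lamb 3 at 74.0%. Among those lower in lambs, chr18:66516001-66517000, listed as an LMR in fetuses and a UMR in lambs, was at 46.0%, 45.4% and 45.4% in the fetuses and 42.1%, 35.8% and 28.2% in the lambs. Its difference of -10.2 points was the largest in that direction, at an adjusted p of 0.779. The windows chr2:246895001-246896000 and chr1:94318001-94319000, both in LMRs, were lower in lambs by 7.72 and 6.78 points, at adjusted p-values of 0.775 and 0.719. None of these passed the threshold.

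On chromosome 16 a group of 8 high-coverage windows between 31591001 and 31621000 combined large stage differences with unequal coverage; it was singled out after its values were seen. All 8 lay in UMRs and had a higher mean in lambs, without overlap between the stages in 4. The run of 5 windows at chr16:31613001-31618000 had levels of 12.3%, 11.9% and 19.4% in the fetuses and 29.0%, 17.8% and 27.8% in the lambs, a mean of 14.5% ± 4.19 and 24.9% ± 6.15 (SD, n = 3 each). Lamb 2 was below fetus 3, so the stages overlap over the run. The run had 136 usable CpGs.

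Coverage in that group fell into a lower and a higher set of animals, and the sets crossed the stages. At chr16:31614001-31615000, the second deepest window of all, relative coverage was 26.3 and 25.2 in fetuses 1 and 2 and 27.3 in lamb 2, but 48.4 in fetus 3, 46.1 in lamb 1 and 48.2 in lamb 3. Its level was 14.2% and 14.5% in fetuses 1 and 2 and 22.4% in lamb 2, and 23.5% in fetus 3, 34.2% in lamb 1 and 33.3% in lamb 3. In this window the animals of higher coverage were thus the more methylated ones within each stage. At chr16:31617001-31618000 relative coverage was 26.1, 24.8 and 51.2 in the fetuses and 48.9, 30.9 and 51.8 in the lambs, and the level was 30.02%, 28.6% and 36.2% against 43.0%, 36.6% and 42.5%. The same 3 animals were the deeper ones at chr16:31620001-31621000, at 23.7, 25.2 and 26.8 against 10.7, 10.9 and 15.6. The level there was 9.80%, 14.2% and 16.6% in fetuses and 20.2%, 21.9% and 24.1% in lambs. In that window lamb 1 was thus less methylated than lamb 2 although its coverage was higher. No CpG of these 3 windows was at 0 in 1 animal where the other animals gave at least 30 reads; 3 CpGs at the end of chr16:31617001-31618000 were at 0 in all 6 animals.

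None of the 8 windows passed the threshold over all 6 animals, and their dispersion was high, reaching 243 at chr16:31616001-31617000. Adjusted p was 0.329 at chr16:31614001-31615000 and at chr16:31617001-31618000. When 1 animal was left out, the calls among the 311 windows lay in this run: chr16:31614001-31615000 and chr16:31617001-31618000 without fetus 3, and the windows at 31614001, 31615001 and 31616001 without lamb 2. Over all windows tested, 3 were called without fetus 3, 4 without lamb 2, and 1 each without fetus 1 and without fetus 2, so other windows were called as well. Fetus 3 is the most methylated fetus there and lamb 2 the least methylated lamb. With 3 animals a stage and coverage unequal in the same animals, a difference of stage and a difference between these animals cannot be told apart here.

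Few windows overlapped the authors' differentially methylated regions. The list of hyper regions overlapped 1 of the 326 (0.307%, against 0.0293% of all windows) and the list of hypo regions 2 (0.613%, against 0.0269%). The hyper region touched chr20:11021001-11022000, whose level was 9.39% in fetuses and 6.69% in lambs over 21 usable CpGs, and which the test did not call. A hypo region touched chr3:4919001-4920000, at 63.0%, 68.5% and 66.5% in the fetuses and 69.7%, 78.4% and 63.3% in the lambs over 3 usable CpGs. The other touched chr17:24973001-24974000, 1 of the 4 most uneven windows, where CpGs were at 0 in each animal but lamb 2 and no level was computed. A region can cover a small part of a window, and which direction the authors' names stand for was not given in the sources used here.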

How the data were processed

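The authors deposited 1 table of raw counts per CpG, methylated and covering reads for each of the 6 animals, and region lists that hold positions alone. Per the submitters' processing notes the tools were Picard and BWA and the builds hg19 and Oar_v3.1, with no roles; the design text gives Oar_v3.1 for mapping. The methylation caller and the filters on depth, duplicates and conversion were not given in the sources used here. Reads carry no molecular identifiers, so precision by depth covers counting error only. The members, lists and tests were chosen with earlier results of these data known.

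Coverage was summed per 1 kb window. Methylated against unmethylated reads over CpGs with at least 5 reads in each animal were fitted per window by a quasi-binomial logistic model, lamb against fetal, two-sided, with dispersion moderated as in limma's squeezeVar and not below 1, and Benjamini-Hochberg adjustment over 842571 windows with at least 3 such CpGs. Calls needed an adjusted p under 0.05 and stage means 10 or more points apart. In simulated beta-binomial counts, whose dispersion rises with depth by construction, the moderated test was too liberal at the depth of these windows. How far that carries over to the measured windows, whose median dispersion was 3.17, was not tested. Other estimates of dispersion are therefore given beside this test. Windows were named by rule: the 5 longest runs, the 5 deepest, the 4 largest differences without overlap in each direction (at least 5 usable CpGs), the 4 most uneven, the 2 on each side of the threshold, and the 3 lowest and 3 highest levels (at least 5 usable CpGs); others are said to be chosen after their values were seen. The lowest adjusted p-values and windows in the authors' DMR lists were also picked from the results. Replicate numbers are names only: deviations of same-numbered animals correlated between -0.0294 and 0.0550 over these windows. Versions were edgeR 4.0.16 and limma 3.58.1 under R 4.3.3, then pandas 2.3.3, scipy 1.17.1 and numpy 2.4.6 under Python 3.11.15.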

Additional observations from a re-analysis of the deposited data

Results flagged for a closer look

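High coverage was also present outside the autosomes, in positions that no comparison above used. On unplaced contigs 213 of 28927 windows (0.736%) reached the same 205 reads per CpG, with levels of 54.8%, 59.6% and 53.7% in fetuses 1 to 3 and 56.7%, 61.1% and 58.0% in lambs 1 to 3. On chromosome X 33 of 113238 windows (0.0291%) did, with levels of 36.9%, 30.9% and 33.2% in the fetuses and 36.2%, 33.2% and 31.4% in the lambs. In both the values of the stages overlap.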

How the results depend on the processing

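The number of windows was 639 at 3 times the median, 144 at 10 times, 536 with windows of 500 bases and 178 with windows of 2 kb. Called windows numbered 1 with a coverage minimum of 3 reads, at chr16:31614001-31615000 (adjusted p 0.00536, with 142 of 1617616 windows called), and 0 to 3 with 1 animal left out (2 without fetus 3 and 3 without lamb 2). Windows with an unadjusted p under 0.05 numbered 58 of 298 (19.5%, against 6.88% of 2341 windows) with a coverage minimum of 10 reads. At 10 times the median they numbered 48 of 137 (35.04%, against 6.11%). Fits added after seeing the data gave 29 with each window's own dispersion, raised to 1 where lower, and 52 with one trended on depth. The counts were 36 with edgeR and 7 with limma. Windows without overlap numbered 95 of 596 (15.9%) at 3 times the median and 29 of 137 (21.2%) at 10 times, against 10.7%, and 79 to 92 with 1 animal left out (25.2% to 29.6%, against 20.2% to 21.4% of all windows). The lamb minus fetal difference in median relative coverage, -1.90 over all listed CpGs, was -1.35 scaled by the mean, -1.41 by the median CpG of a window and -0.545 at 3 times the median. The summed level differed by 0.270 to 3.92 points with 1 animal left out, by 0.598 with equal weight per CpG, and by -0.227 over all listed CpGs (added after seeing the data). With the replicate number as a block 0 windows were called and 86 had an unadjusted p under 0.05 (27.7%, against 5.52%). The windows named for their largest differences were refitted in the window test with other coverage minima and with 1 animal left out. Adjusted p stayed on its side of 0.05 in 60 of these fits and fell under it in 4. With a minimum of 3 reads these were chr16:31617001-31618000 (adjusted p 0.0105, 9.11 points) and chr3:100723001-100724000 (0.00651, -5.89 points). Without fetus 3 the same windows were at 0.0219 and 11.4 points and at 0.0124 and -7.65 points. Only chr16:31617001-31618000 without fetus 3 also reached the 10 points needed for a call. At 3 against 3 animals an exact permutation test of 1 value cannot go below 0.1.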
